A study of Homo sapiens with 6 samples.

Results

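The cytosolic ribosomal proteins are the protein part of the ribosome, the particle that translates every cytoplasmic mRNA. The genes were taken by their platform annotation: RPL or RPS followed by digits and, where present, a final A, L, X or Y, together with RPLP0, RPLP1, RPLP2 and RPSA, while the ribosomal S6 kinases and pseudogenes were left out. This gave 47 genes with 76 probesets among the 10127 genes and 16569 probesets analysed. A probeset is a group of probes read together as 1 value, and 28 of the 76 were annotated to more than 1 symbol. The RefSeq annotation of GRCh38.p14 holds 81 protein-coding genes that follow the rule, and the other 34, RPLP0, RPSA, RPS6 and RPL39 among them, were not analysed here. Of the 47 genes, 30 code for proteins of the large subunit and 17 for proteins of the small subunit.

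The 2 groups of arrays came from HEK293T, a line derived from human embryonic kidney and transformed with the large T antigen of SV40. The USF1 group was transiently transfected with a pcDNA4/HisMax plasmid that carried the coding region of USF1, a transcription factor that binds the E-box CACGTG, and the Empty vector group with the plasmid alone. Total RNA was taken 48 hours after transfection and hybridised to Affymetrix U133 Plus 2.0 arrays, with 3 arrays in each group. The cells express USF1 of their own, and each RNA sample pools transfected with untransfected cells. The labels do not say whether the arrays came from separate transfections, so the spread behind the p-values is that of these arrays and may be technical.

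A ribosome is built in the nucleolus from ribosomal RNA and ribosomal proteins, after which the subunits are exported. The small subunit decodes the mRNA, and the large subunit forms the peptide bond and releases the chain through its exit tunnel. Ribosomal protein mRNAs are among the most abundant in a growing cell, and most begin with a cytosine and an unbroken run of pyrimidines, the terminal oligopyrimidine (TOP) motif, through which their translation is controlled together by mTOR and LARP1. Because this control acts mainly on translation, mRNA level and protein output of these genes can part ways.

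The start of the transcript is the feature that these genes are known to share, so the start sites of the genes on which the results turn are shown first, with the RefSeq sequence of GRCh38.p14. Each window runs 5′ to 3′ on the gene's own strand from 30 bases before the annotated start to 20 bases from it, and the capitals mark the pyrimidine run that opens the transcript where it starts with C.
RPS27L, chr15:63157458-63157507, minus strand: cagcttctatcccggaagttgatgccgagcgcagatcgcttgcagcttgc
RPS27, chr1:153990732-153990781, plus strand: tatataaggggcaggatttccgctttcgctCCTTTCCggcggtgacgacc
RPS14, chr5:150449720-150449769, minus strand: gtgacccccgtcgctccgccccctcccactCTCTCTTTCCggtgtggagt
RPS19, chr19:41860225-41860274, plus strand: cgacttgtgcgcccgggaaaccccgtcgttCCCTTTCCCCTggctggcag
RPLP2, chr11:809937-809986, plus strand: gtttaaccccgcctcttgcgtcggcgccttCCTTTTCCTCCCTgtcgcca
RPL31, chr2:101002259-101002308, plus strand: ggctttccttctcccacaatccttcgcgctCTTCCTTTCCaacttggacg
Among these 6 start sites, that of RPS27L had no such run, whereas its paralogue RPS27 and the other 4 had one.

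Of the 47 genes, 38 had a start in the RefSeq table. A start counted as TOP-like where the transcript began with C and at least 4 further C or T bases, and 27 of the 38 genes (71.1%) had such a start, against 5.14% of the 27305 genes in the table. The share was 73.9% for the large subunit (17 of 23 genes) and 66.7% for the small subunit (10 of 15 genes). RPS27L, RPL6, RPL17 and RPS15 were among the 11 genes whose annotated starts did not meet this rule. The rule depends on the exact annotated base. Neither RPL6 start was the outermost start of that gene, and a pyrimidine run just before the RPL17 start did not count. Failing the rule therefore does not show that a transcript lacks a TOP start.

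The E-box CACGTG, which reads the same on both strands, is shown in capitals in the 2 windows of this kind that held it, those of RPS28 and of the second start of RPS19.
RPS28, chr19:8321466-8321515, plus strand: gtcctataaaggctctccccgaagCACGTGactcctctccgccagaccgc
RPS19, chr19:41860374-41860423, plus strand: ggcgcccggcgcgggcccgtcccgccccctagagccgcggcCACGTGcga
Over the longer stretch from 250 bases before to 50 bases after a start, CACGTG occurred in RPL19, RPS19 and RPS28, 3 of 38 genes (7.89%), against 8.77% of all genes. The looser form CANNTG, which includes CACGTG, occurred in 16 genes (42.1%), against 73.1% of all genes. A match of letters is a description of the sequence and not of binding. The log2 differences of these 3 genes, USF1 minus Empty vector, were -0.07 for RPL19, 0.01 for RPS19 and 0.02 for RPS28, none past the threshold.

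Over all 16569 probesets 11.9% passed the threshold used throughout, an adjusted p-value under 0.05 (limma, Benjamini-Hochberg). The probeset of USF1 itself averaged 4.79 ± 0.13 with USF1 and 4.86 ± 0.43 with Empty vector (log2, SD, n = 3 each), and since its place relative to the cloned coding region was not known here, it did not check the labels. The authors reported over-expression of the USF1 protein by western blot. Of 8 HEK293T markers, VIM, NEFM, NEFL and INA were measured, at mean log2 levels of 10.12, 10.36, 8.06 and 6.23 over the 6 arrays, and the markers of other cell types were not analysed here. INA fell with USF1 (-0.39, adjusted p-value 0.024, limma), VIM, NEFM and the brightest NEFL probeset did not pass (0.15, 0.03 and 0.15), and 2 further NEFL probesets rose (0.41 and 0.38, adjusted p-values 0.021 and 0.0312, limma). Empty vector replicate 1 stood apart, since the SD of its differences from the other Empty vector arrays over all probesets was 0.34 for both, whereas the pairs of USF1 arrays gave 0.15 to 0.22 and the other Empty vector pair 0.18. The log2 difference between the 5′ and 3′ control probesets of actin, a sign of RNA integrity, was -0.53, -0.68 and -0.49 on the USF1 arrays and -1.34, -1.04 and -0.52 on the Empty vector arrays. For GAPDH it was -0.35, -0.32 and -0.33 on the USF1 arrays and -0.58, -0.32 and -0.26 on the Empty vector arrays, so that Empty vector replicate 2 lay apart from the USF1 arrays by actin but not by GAPDH.

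The first question was whether the mRNAs of the ribosomal proteins moved with USF1. Of 47 genes, 0 rose and 1, RPS27L, fell, and 46 did not pass the threshold (limma, each gene at the probeset with the highest mean). Among all probesets, 4.32% rose and 7.6% fell. Of all 10127 genes, taken the same way, 517 rose and 898 fell. Before adjustment, limma's p-value was under 0.05 for RPS14, above Empty vector, and RPS27L, below it, which made 2 of 47 genes, against 31.3% of all probesets. The median log2 difference of the 47 genes was 0.02, with 30 genes above 0 and 17 below. The median was -0.06 over all probesets and -0.08 over all genes.

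**Figure D1:**
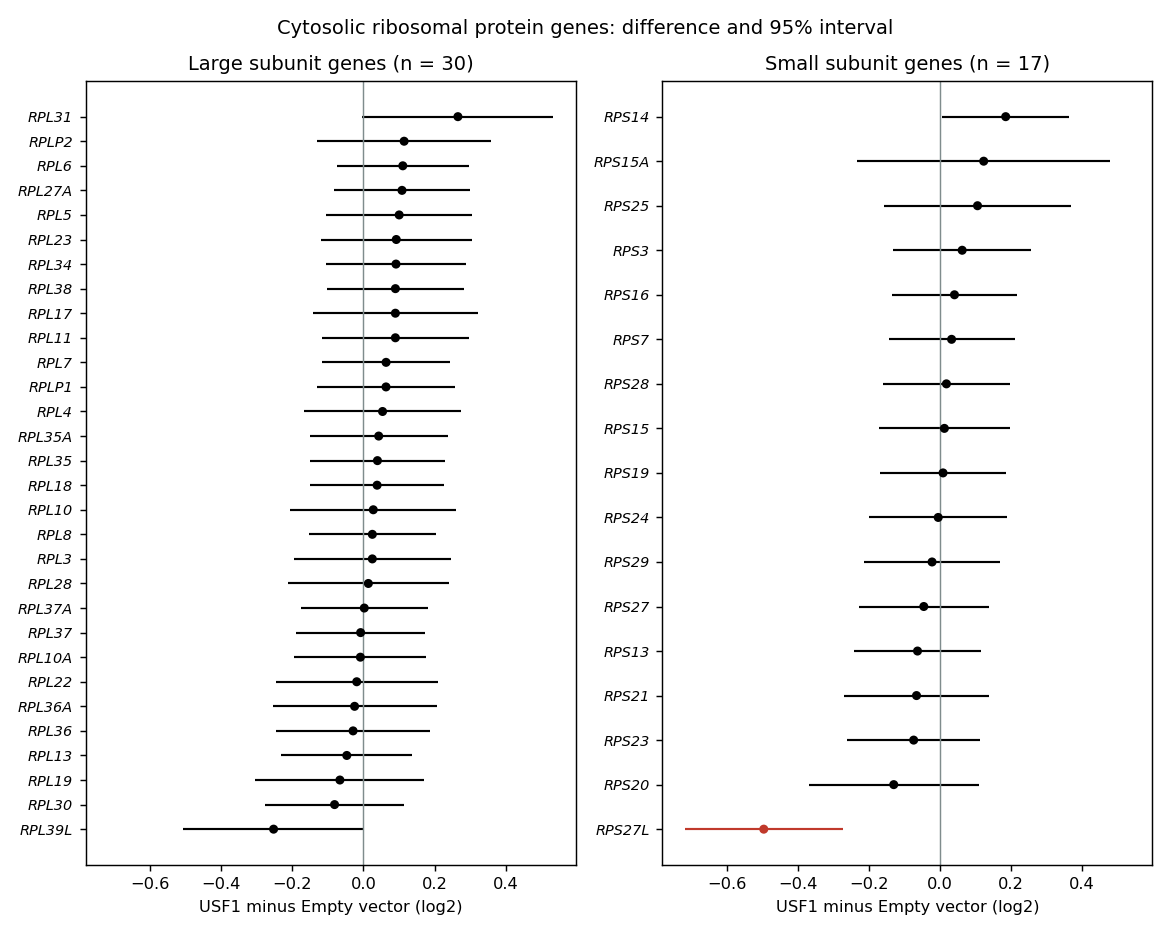
Log2 difference (USF1 minus Empty vector) of each of the 47 genes at its brightest probeset, with the 95% interval of the limma fit, by subunit. The points lie between -0.50 and 0.27, and only RPS27L passed the threshold.

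The differences were small in size on these normalized values. Without regard to sign, the median was 0.06 on the log2 scale for the 47 genes and 0.17 for all probesets, and 44 genes lay within 0.2 of 0. For 46 genes the 95% interval of the difference stayed within a 1.5-fold change either way, the exception being RPS27L, while this was so for 12657 of all 16569 probesets. The standard error of the difference ranged from 0.08 to 0.16 over the genes.

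The genes lay near the top of the array's range. The probesets with a mean log2 level of at least 11 numbered 99, and 58 of them were of ribosomal proteins, as were 35 of the brightest 50 probesets. The highest value of any probeset on any array was 12.94. The values had been quantile normalized, which brings the arrays to a common distribution. A shift shared by most of the brightest probesets could be reduced by this step, and how far was not tested. The small differences are therefore relative to the other probesets of the same brightness. The other 41 probesets of that brightness belonged to other genes, and 2 of them (4.88%) passed the threshold, while 0 of the 58 did. The median difference without regard to sign was 0.05 for the 58 and 0.09 for the 41.

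**Figure D2:**
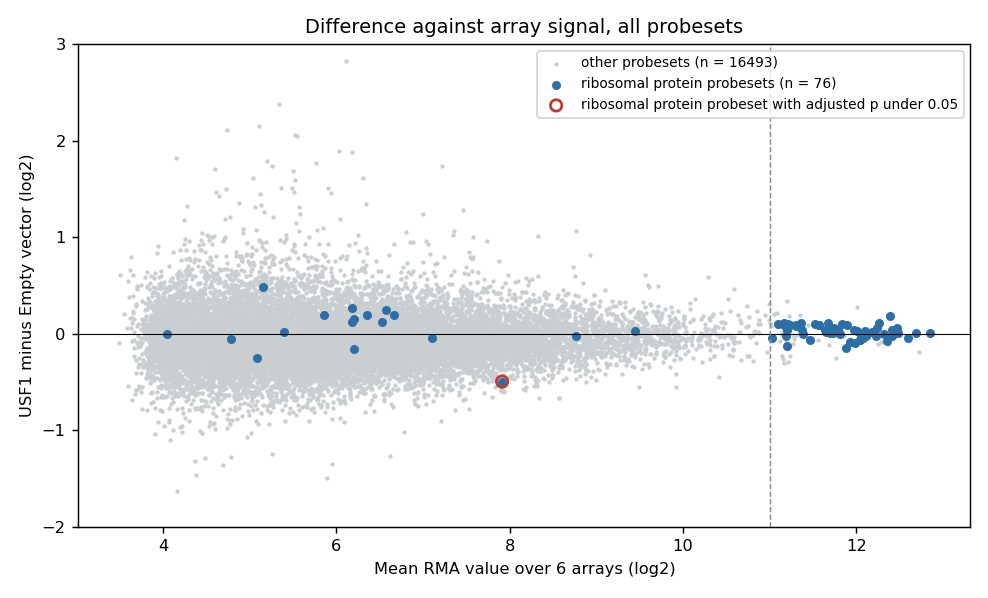
Mean log2 level over the 6 arrays (x axis) against log2 difference, USF1 minus Empty vector (y axis), for all probesets and for those of ribosomal proteins. The ribosomal protein probesets with a mean of at least 11 lie between -0.15 and 0.18, and the dimmer ones spread between -0.50 and 0.49.

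RPS27L was the 1 member that passed the threshold. It codes for a near copy of RPS27, a zinc finger protein of the small subunit, and is known in human cells as a target of p53. Its log2 levels were 7.59, 7.65 and 7.75 with USF1, against 8.30, 8.10 and 8.07 with Empty vector. All USF1 values lay below all Empty vector values. The difference was -0.50 (SE 0.10, 95% interval -0.72 to -0.27, n = 3 each), a level of 0.709 times that with Empty vector, with an adjusted p-value of 0.0187 (limma).

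The call of RPS27L rested on few arrays. Without USF1 replicate 1 the adjusted p-value (limma) was 0.079, without USF1 replicate 3 it was 0.0592, and without Empty vector replicate 2 it was 0.0552, while the difference kept its sign at -0.46, -0.54 and -0.52. Without Empty vector replicate 1, the array that stood apart, the difference was -0.42 and passed the threshold. Empty vector replicate 2, with an actin value of -1.04, remained in that fit. The part of RNA integrity in the difference of RPS27L was not tested. In RNA of whole cultures, fewer cells of a type and less RNA per cell cannot be told apart.

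RPS27 itself, the third brightest member, did not pass the threshold. Its levels were 12.56, 12.57 and 12.58 with USF1, against 12.67, 12.61 and 12.56 with Empty vector. The groups overlapped, and the difference was -0.05 (SE 0.08, 95% interval -0.23 to 0.14, adjusted p-value 0.731, limma). The difference of RPS27L was lower than that of RPS27 by 0.45 on the log2 scale, given as a description, since 3 arrays against 3 cannot give an exact permutation p-value below 0.1 (two-sided).

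**Figure D3:**
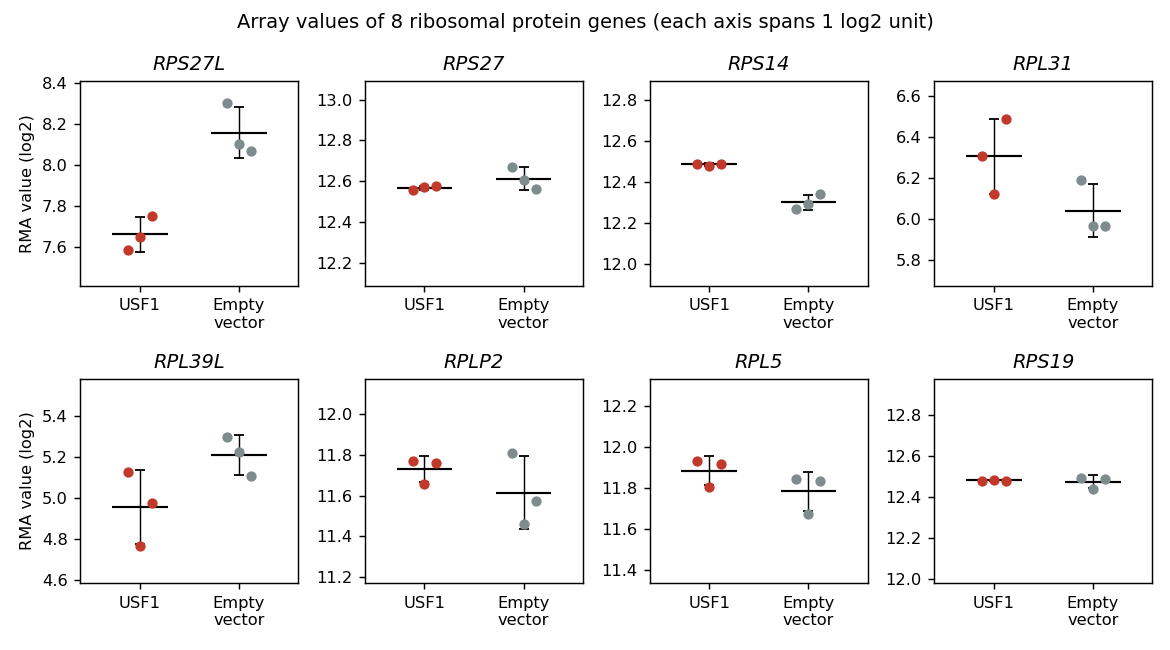
Log2 level on each of the 6 arrays, USF1 left of Empty vector, for named ribosomal protein genes, with a line at each group's mean and its SD; each axis spans 1 log2 unit around the gene's mean. The USF1 points of RPS27L lie below all of its Empty vector points, and those of RPS14 lie above.

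RPS14, a protein of the small subunit's platform whose loss in bone marrow is known from the 5q deletion syndrome, had the second smallest p-value. It had levels of 12.49, 12.48 and 12.49 with USF1, against 12.27, 12.29 and 12.34 with Empty vector. The arrays of the 2 groups did not overlap and the USF1 arrays lay closer to each other than the Empty vector arrays did. The difference was 0.18 (SE 0.08, 95% interval 0.0051 to 0.36), and with an adjusted p-value of 0.151 (limma) it did not pass.

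The groups did not overlap in 6 of the 47 genes (12.8%). This compares with 39.9% of all genes at their brightest probeset, 36.1% of all probesets and 29.3% of the 41 other bright probesets. RPS14, RPL6, RPL7 and RPS16 were on the higher side with USF1, and RPS13 and RPS27L on the lower. The sizes were small outside RPS14 and RPS27L, namely 0.11 for RPL6, 0.06 for RPL7, 0.04 for RPS16 and -0.06 for RPS13, with adjusted p-values of 0.389, 0.619, 0.759 and 0.617 (limma). In 31 genes the difference between groups was smaller than the range within both groups.

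In the large subunit 0 of 30 genes passed the threshold. The median difference was 0.04, with 21 genes above 0 and 9 below, between -0.25 and 0.27, and all 30 intervals stayed within 1.5-fold. RPL5 and RPL11 bind the ribosomal 5S RNA and, outside the ribosome, hold back MDM2, the ligase that degrades p53. RPL5 had levels of 11.93, 11.80 and 11.92 with USF1, against 11.84, 11.67 and 11.83 with Empty vector, a difference of 0.10 (SE 0.09, adjusted p-value 0.482, limma). RPL11 had levels of 11.33, 11.18 and 11.32 with USF1, against 11.24, 11.09 and 11.23 with Empty vector, a difference of 0.09 (adjusted p-value 0.535, limma). For both genes the groups overlapped.

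RPLP1 and RPLP2 form the stalk on the large subunit that calls in the elongation factors. RPLP2 had levels of 11.77, 11.66 and 11.76 with USF1, against 11.81, 11.46 and 11.57 with Empty vector, where replicate 1 was the highest of the 6 arrays. Its difference was 0.11 (SE 0.11, adjusted p-value 0.501, limma). RPLP1 had levels of 12.51, 12.51 and 12.48 with USF1, against 12.36, 12.54 and 12.41 with Empty vector, a difference of 0.06 (adjusted p-value 0.648, limma). RPL6, a protein of the outer surface of the large subunit, had levels of 11.47, 11.35 and 11.42 with USF1, against 11.34, 11.30 and 11.27 with Empty vector.

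The largest differences of the large subunit, 1 in each direction, were those of RPL31 and RPL39L, both dim on these arrays. RPL31, which lies at the end of the exit tunnel, had levels of 6.31, 6.12 and 6.49 with USF1, against 6.19, 5.97 and 5.96 with Empty vector, a difference of 0.27 (SE 0.12, 95% interval -0.0031 to 0.53, adjusted p-value 0.164, limma). RPL39L, a paralogue of the tunnel protein RPL39 that is known as a testis protein in mouse, had levels of 5.13, 4.77 and 4.98 with USF1, against 5.30, 5.23 and 5.11 with Empty vector, a difference of -0.25 (SE 0.11, 95% interval -0.51 to 0.0024, adjusted p-value 0.163, limma). Both lay among the dimmest members, where standard errors were larger, and in both 1 USF1 array overlapped the Empty vector values. Neither passed the threshold.

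Other large subunit genes stayed close to 0. RPL36A, which sits near the tRNA exit site, had a difference of -0.02 (adjusted p-value 0.893, limma), and RPL37A, a zinc finger protein and the brightest member at a mean of 12.85, had 0.0023 (adjusted p-value 0.989, limma). RPL30, which binds its own transcript in yeast, had a difference of -0.08 (adjusted p-value 0.553, limma). The probeset that represents RPL10 is annotated to RPL10 and NDUFS5 with an NDUFS5 accession, and its value of 0.03 therefore cannot be assigned to RPL10. The other RPL10 probeset, dim and shared with a small nucleolar RNA, had a difference of 0.25 (SE 0.12, 95% interval -0.03 to 0.52, adjusted p-value 0.209, limma). Both probesets lay above 0, within 1.5-fold and short of the threshold, but by annotation neither reports RPL10 alone. The counts of genes given here include RPL10 at the first of them.

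In the small subunit 1 of 17 genes passed the threshold, RPS27L. The median difference was 0.01, with 9 genes above 0 and 8 below, between -0.50 and 0.18. RPS19, a head protein mutated in Diamond-Blackfan anaemia, had levels of 12.48, 12.48 and 12.48 with USF1, against 12.49, 12.44 and 12.49 with Empty vector, a difference of 0.01 (adjusted p-value 0.957, limma). RPS3, at the mRNA entry channel and also a DNA repair protein, had a difference of 0.06 (adjusted p-value 0.657, limma), and RPS15, a head protein and the second brightest member, had 0.01 (adjusted p-value 0.939, limma). For these genes the arrays of the 2 groups overlapped.

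The other named small subunit genes also did not pass. RPS20, a head protein, had levels of 11.23, 11.03 and 11.14 with USF1, against 11.43, 11.14 and 11.23 with Empty vector, a difference of -0.13 (SE 0.10, adjusted p-value 0.428, limma). RPS23, a protein of the decoding centre, had a difference of -0.07 (adjusted p-value 0.568, limma). RPS15A, another small subunit protein but dim on these arrays at a mean of 6.18, had levels of 6.42, 5.94 and 6.35 with USF1, against 6.34, 5.90 and 6.10 with Empty vector, a difference of 0.12 (SE 0.16, adjusted p-value 0.628, limma). Its standard error was the largest among the genes.

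Probesets of the same gene did not always give the same value. For 18 genes more than 1 probeset was present, and for 10 genes these lay on both sides of a mean of 11. The 11 dim probesets of these 10 genes had a median difference of 0.12, between -0.16 and 0.49, and the brightest probesets of the same genes had a median of 0.01, between -0.07 and 0.09. The brightness of a probeset depends on its probes as well as on the amount of mRNA, and where the probes lie on the transcript was not known here.

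RPL37A had the widest gap of this kind. Its dim probeset had a difference of 0.49 (SE 0.32) and did not pass, and its bright one had 0.0023. On the dim probeset Empty vector replicate 1 lay far below the other 5 arrays. The dim probeset of RPS23 had a difference of 0.20 (adjusted p-value 0.255, limma), opposite in sign to its bright one. RPL17, a large subunit protein at the tunnel exit, had 3 bright probesets between 0.08 and 0.09 and a dim one at 0.20, none past the threshold (adjusted p-value 0.151 to 0.683, limma). Each of these is also annotated to C18orf32, so the dim value, which is among those compared above, cannot be assigned to RPL17 alone. RPL13, another large subunit protein, had 6 probesets between -0.15 and 0.04.

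**Figure D4:**
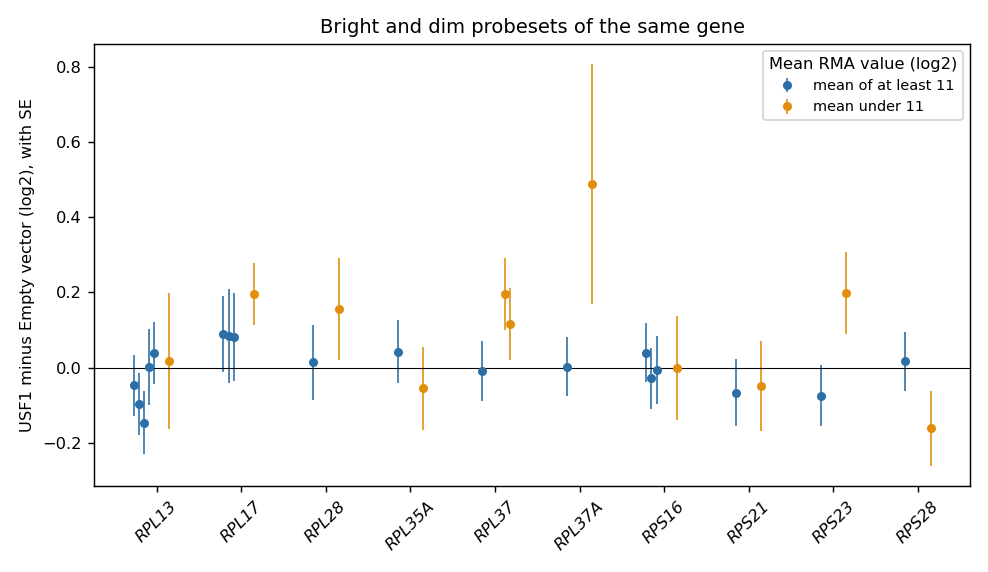
Log2 difference (USF1 minus Empty vector) of the dim and the bright probesets of the 10 genes that have both, with the standard error of each. The dim probesets (mean under 11) lie between -0.16 and 0.49, and the bright ones between -0.15 and 0.09.

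Many of the genes deviated in the same direction on a given array. Over the 47 genes, the median deviation from the gene's mean over the 6 arrays was 0.04, -0.03 and 0.01 on the USF1 arrays and 0.05, -0.05 and -0.03 on the Empty vector arrays. USF1 replicate 1 lay above that mean in 40 genes and Empty vector replicate 1 in 38, against 9 and 10 for the other Empty vector arrays. USF1 replicate 1 was the highest of its group in 30 genes and replicate 2 the lowest in 34, and Empty vector replicate 1 was the highest of its group in 39 genes. The median member level was 11.93, 11.82 and 11.87 on the USF1 arrays and 11.84, 11.80 and 11.80 on the Empty vector arrays, which overlap. The median range of a gene was 0.09 within USF1 and 0.15 within Empty vector.

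**Figure D5:**
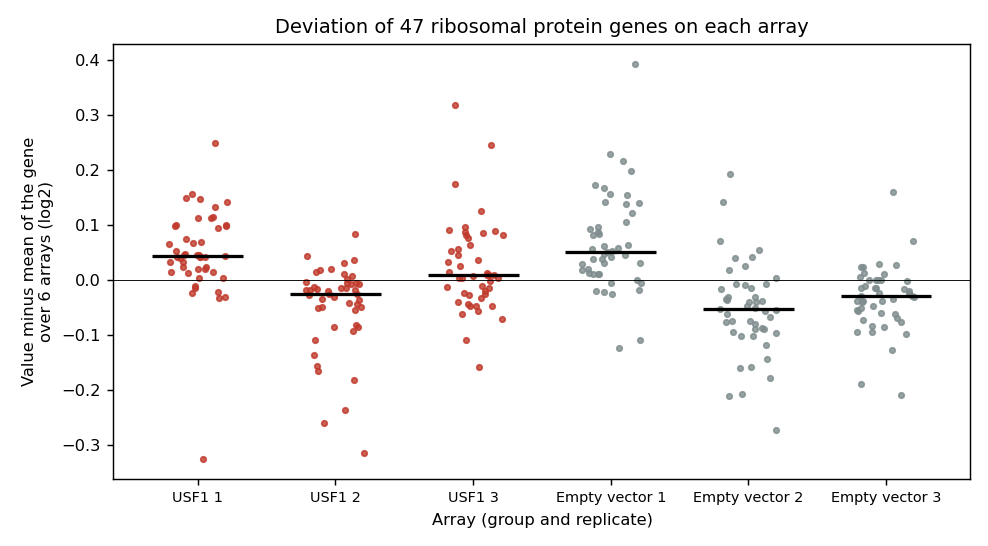
Deviation of each of the 47 genes from its mean over the 6 arrays (y axis, log2) on each array, USF1 left of Empty vector, with the median of each array. The medians lie between -0.05 and 0.05, highest on Empty vector replicate 1.

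The size of the median difference moved with the arrays. With Empty vector replicate 1 left out the median difference was 0.05, and with Empty vector replicate 2 left out it was 0.0027. With Empty vector replicate 3 as the only control, chosen after seeing the actin values above, the median was 0.05. In that fit the spread comes from the USF1 arrays alone and the 1 control array is assumed to vary like them, so its calls are not read. The part of RNA integrity or of the array in these shifts was not tested. With each array centred on its median, which moved the median of all probesets to 0.0039, the median of the 47 genes was 0.09, with 42 above 0 and 5 below, and RPS27L was again the 1 gene that passed.

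The other mRNAs known to start with a TOP motif, mainly translation factors, formed a list of 25 genes outside the ribosome, of which 19 were measured. Of these 0 rose and 1, GAS5, fell, beside 4.32% and 7.6% of all probesets. The differences lay above 0 in 15 genes and below in 4, with a median of 0.08, and the groups did not overlap in 6 of the 19 genes, beside 36.1% of all probesets. These counts include genes with only dim probesets, namely NACA, EEF1D, HNRNPA1 and EEF1A1, at mean log2 levels of 4.07, 4.23, 4.52 and 5.87. How well such probesets report these mRNAs was not tested. GAS5 is a non-coding RNA that hosts small nucleolar RNAs, and each of its probesets is annotated to 9 symbols. The brightest had levels of 11.11, 11.03 and 11.05 with USF1, against 11.37, 11.39 and 11.32 with Empty vector, a difference of -0.29 (SE 0.08, adjusted p-value 0.0488, limma). Its other probesets did not pass, at -0.28 and -0.07 (adjusted p-values 0.0554 and 0.711, limma), and at the last the groups overlapped. The call of the brightest probeset was lost without any 1 of the 6 arrays, and with each array centred on its median (adjusted p-value 0.0864, limma), where EEF2 passed instead.

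EEF2, the factor that moves the ribosome along the mRNA, had the largest difference above 0 in this list. Its brightest probeset had levels of 12.17, 12.07 and 12.18 with USF1, against 11.82, 11.89 and 11.89 with Empty vector, a difference of 0.28 (SE 0.08, adjusted p-value 0.0609, limma). Its second probeset, at 0.34 (SE 0.09, adjusted p-value 0.0461, limma), passed the threshold. FAU, the fusion protein that yields a small subunit protein, had levels of 11.27, 11.10 and 11.20 with USF1, against 11.17, 10.76 and 10.99 with Empty vector, a difference of 0.22 (SE 0.12, adjusted p-value 0.243, limma). RACK1 was not analysed here.

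Of the paralogues that the rule leaves out by their names, RPL26L1 and RPL22L1 were measured. RPL26L1, a near copy of the large subunit protein RPL26, had levels of 8.71, 8.61 and 8.60 with USF1, against 9.07, 8.84 and 8.85 with Empty vector, and the groups did not overlap. Its difference was -0.28 (SE 0.10, adjusted p-value 0.0864, limma), and it did not pass. RPL22L1, a near copy of RPL22, had a difference of 0.14 (adjusted p-value 0.389, limma).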

How the data were processed

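Total RNA of transfected HEK293T cells was measured on 6 Affymetrix U133 Plus 2.0 arrays. The authors deposited log2 expression values made with justRMA in R 2.8.0 (background subtraction and quantile normalization), with masked probes, probesets with few probes or mostly absent calls removed, and ComBat batch correction whose batches were not given in the sources used here. A batch term could therefore not be fitted. From these values the difference USF1 minus Empty vector was fitted with limma 3.58.1 in R 4.3.3 (lmFit and eBayes, no covariates) over all 16569 probesets, of which 15099 had 1 annotated symbol, 570 several and 900 none. P-values were adjusted by Benjamini-Hochberg over all probesets at 0.05. The test was tried on simulated data first. A gene was represented by its probeset with the highest mean, and 13 of the 47 genes by a probeset annotated to several symbols. Named genes were those past the threshold, the 5 largest differences in each direction, the 3 brightest, the 3 dimmest and genes picked by role; others were named after their values were seen. The members and lists were chosen with earlier results of these data known. Alternatives covered normalization, prior, array weights, filter, test, replicate block, probeset choice and each array left out. The number of arrays limits the precision.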

Additional observations from a re-analysis of the deposited data

How the results depend on the processing

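Over all probesets, 1974 were called, and 3688 were with array weights, 160 and 1 by the methods' t-test after Benjamini-Hochberg (equal and unequal variances), 4265 and 3419 by it without adjustment at 0.05, and 369 to 2222 with each array left out (the lowest counts being 369 when USF1 replicate 3 was dropped, 466 for USF1 replicate 1, 574 for Empty vector replicate 2 and 1110 for Empty vector replicate 3). The share of higher calls was 36.2%, against 56.1% with each array centred on its median and 50.4% after a further quantile normalization. Of the ribosomal protein genes, 1 was called, and 2 were under the trend prior (RPS14 added), with array weights (RPL31 added) and at an unadjusted limma p-value under 0.05 (RPS14 added). The methods' t-test called 0 after Benjamini-Hochberg with either variance. At the unadjusted threshold it called 4 with unequal variances (RPS13, RPS14, RPS16, RPS27L) and 5 with equal variances (RPL6 added). With each array left out the count was 0 to 1, and with Empty vector replicate 3 as the only control it was 0, a fit whose 1 control array is assumed to vary like the USF1 arrays and which says nothing of how stable the call is. The median difference of these genes was 0.025, against 0.0934 with each array centred, and 0.0027 to 0.049 with each array left out. Of the 5′ TOP and partner genes 1 was called, against 3 under the trend prior, 2 with array weights, 2 without the dimmest 25% of probesets, 0 by the methods' t-test after Benjamini-Hochberg, 3 and 4 by it unadjusted, and 0 to 0 with each array left out. Over 23 named genes and 391 values under the alternatives, 350 kept the call and sign, 14 were called only in the alternative, 14 were no longer called, and 13 turned sign without a call. The cause was not tested. The same replicate number in both groups did not pair the arrays by the labels, and the correlations of same-numbered deviations from the group means were 0.096, 0.25 and 0.13; each array correlated best with its own number, a hint from the data. With the replicate number as a block 2875 probesets were called, 1 ribosomal protein gene and 1 TOP or partner gene, and RPS27L had an adjusted p-value of 0.0306 (limma). Dim probesets had larger standard errors, with a median of 0.11 against 0.085 for the bright ones.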

Other observations

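Chaperones of new ribosomal proteins, together with import and ribosome assembly factors, formed a further list, with all 9 listed genes measured. Each taken at its brightest probeset, 0 of these passed the threshold (limma, adjusted p-value under 0.05), beside 11.9% of all probesets, and 1, AAMP, had an unadjusted p-value under 0.05, beside 31.3%. A dimmer probeset of PDCD2 also had an unadjusted p-value under 0.05 (0.0202, limma). At the brightest probeset of each gene 3 differences were above 0 and 6 below, with a median of -0.08. AAMP, whose yeast homologue Sqt1 escorts the large subunit protein Rpl10, had levels of 7.99, 7.92 and 7.90 with USF1, against 7.72, 7.50 and 7.85 with Empty vector, a difference of 0.25 (adjusted p-value 0.147, limma). TSR2, the chaperone of RPS26, had levels of 6.60, 6.56 and 6.36 with USF1, against 6.66, 6.68 and 6.84 with Empty vector, a difference of -0.22 (adjusted p-value 0.168, limma). At the brightest probesets the groups did not overlap in 2 of the 9 genes, AAMP and TSR2, beside 36.1% of all probesets. PDCD2, a chaperone of RPS2, was below 0 at its brightest probeset (-0.16, adjusted p-value 0.399, limma), while its 2 other probesets were above 0 (0.19 and 0.31, adjusted p-values 0.183 and 0.0939, limma), with groups that did not overlap, so that the sign of its difference depends on the probeset.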
